A study of Mus musculus with 24 samples.

Results

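Promoter H3K27me3 in cultured mouse cerebellar granule neurons (CGNs) was compared between the cultures labelled DIV3 and DIV7 (days in vitro). Groups came from the sample labels, and 6 of the 24 libraries of the study entered, 3 per day. In the study, granule neuron precursors were purified on Percoll gradients from P6-P8 cerebella of CD1-IGS mice, and a replicate was a culture of cells pooled from litters. Both groups had 1 µM cytosine arabinoside (AraC), which stops the division of non-neuronal cells, on DIV2, and neither received another compound, so that they differed by their labels in the day of harvest alone. The other 18 libraries, from DIV1, DIV5 and cultures given the EZH2 inhibitor GSK-126, the KDM6 inhibitor GSK-J4 or DMSO, were not part of the contrast. The 6 of DIV1 and DIV5 shared the fit, and so entered its filter and its estimate of the spread, and the 12 of the inhibitor experiments give background values.

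H3K27me3 is written by Polycomb repressive complex 2, whose catalytic subunit is EZH2 or EZH1, and is removed by the KDM6 demethylases. It lies over silent genes, in neurons mostly over regulators and structural genes of other lineages and of other developmental stages, and its promoter targets are often rich in CpG. In dividing cells the mark is also diluted by replication, a route that is closed to neurons after their last division. In CUT&RUN an antibody against the mark tethers a nuclease that releases the marked fragments for sequencing, and each deposited list holds the regions in which 1 library was enriched, called peaks.

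The measurement used here is coverage, the percentage of a promoter window that lay under peaks. A window ran 3 kb to either side of the annotated 5' end of each of 21938 protein-coding genes (GENCODE, mm10). Differences are DIV7 minus DIV3, in percentage points of the window. A window without a peak is below the threshold of the peak caller and is not shown to lack the mark.

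Sequences of 5 promoters are given here, since the results below turn on them. When all lists were limited to the same length the days did not overlap at any of the 5, whereas in the lists as deposited they overlapped at Chrna3, Jam2 and Aqp3. Each lies in the stretch that peaks of all 3 libraries of the marked day shared, is written on the strand of the gene in GRCm38 (mm10), and has its CpG dinucleotides in capitals. Chrna3 (chr9:55026132-55026189, minus strand, intron), Klhl1 (chr14:96518230-96518317, minus strand, coding sequence) and Jam2 (chr16:84774682-84774901, plus strand, intron) were covered at DIV7. Aqp3 (chr4:41098377-41098596, minus strand, upstream of the gene) and Spock1 (chr13:57907482-57907701, minus strand, coding sequence and intron) were covered at DIV3.
Chrna3: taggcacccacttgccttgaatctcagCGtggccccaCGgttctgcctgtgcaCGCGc
Klhl1: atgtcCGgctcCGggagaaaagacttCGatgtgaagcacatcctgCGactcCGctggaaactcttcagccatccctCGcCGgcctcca
Jam2: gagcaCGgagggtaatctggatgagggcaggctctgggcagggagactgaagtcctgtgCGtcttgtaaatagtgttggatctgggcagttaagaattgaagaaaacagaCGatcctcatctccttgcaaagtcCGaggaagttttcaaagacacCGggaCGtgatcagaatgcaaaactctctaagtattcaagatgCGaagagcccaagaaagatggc
Aqp3: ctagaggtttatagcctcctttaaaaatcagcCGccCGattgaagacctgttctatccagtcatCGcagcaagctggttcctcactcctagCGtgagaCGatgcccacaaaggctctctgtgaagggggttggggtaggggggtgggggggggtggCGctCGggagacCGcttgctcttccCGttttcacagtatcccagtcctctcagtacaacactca
Spock1: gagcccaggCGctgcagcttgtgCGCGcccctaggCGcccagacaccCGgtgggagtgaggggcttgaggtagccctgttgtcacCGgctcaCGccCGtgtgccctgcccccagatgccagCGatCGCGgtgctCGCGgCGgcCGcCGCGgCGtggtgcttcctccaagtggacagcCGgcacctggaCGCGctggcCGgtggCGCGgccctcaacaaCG
The shared stretch was whole for Chrna3 (58 bases), while the 88 bases of Klhl1 are the coding part of 266 shared bases and the other sequences are 220 bases from the middle of longer stretches. CpG density differed widely among them. The 220 bases of Spock1 held 25 CpG, those of Aqp3 held 9 and those of Jam2 held 7. In the upstream region of Aqp3 the shared stretch ran from 607 bases before the 5' end to base 272 after it, whereas at the other 4 it lay downstream of the 5' end.

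The amount of chromatin called differed more among DIV3 cultures than between the days. The DIV3 lists held 4740, 12245 and 22832 peaks, and the DIV7 lists held 5178, 5891 and 9852. They covered 1.11, 3.40 and 6.57 Mb of the genome at DIV3 and 1.25, 1.19 and 2.25 Mb at DIV7 (3.69 ± 2.74 against 1.56 ± 0.598 Mb, SD, n = 3 each, exact two-sided permutation p = 0.4). Promoters with a peak numbered 1558, 2794 and 3832 at DIV3 and 1576, 1464 and 2117 at DIV7 (exact permutation p = 0.3). The groups overlapped in both, with DIV3 replicate 1, the shortest list of the 6, beside the DIV7 libraries. Adjusted over 8 such measures of whole libraries, p was 0.533 to 0.7, and with 3 libraries against 3 an exact permutation p cannot go below 0.1. Read depth is unknown.

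**Figure D1:**
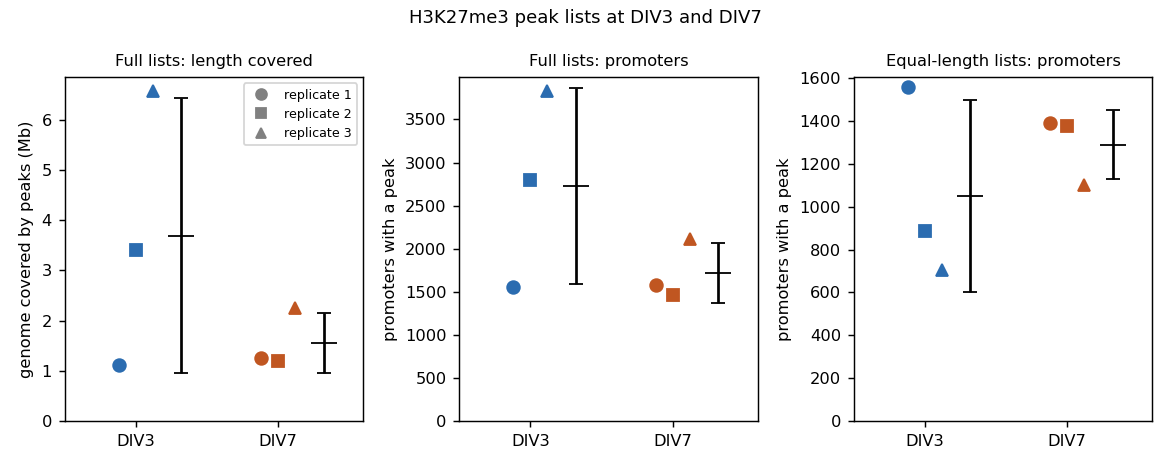
Genome length covered by peaks (Mb, left) and promoters with a peak in the full lists (middle) and in lists of equal summed length (right), at DIV3 (blue) and DIV7 (orange); symbols are replicates, bars the mean and 1 SD. In the full lists DIV3 spreads from 1.11 to 6.57 Mb, and all 3 DIV7 libraries lie inside that range.

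Replicate 1 of DIV3 and replicates 1 and 2 of DIV7 were deposited with lists of nearly the same length, which allows them to be set side by side without any adjustment. Of the 1558 promoters with a peak in DIV3 replicate 1, 1001 (64.2%) also had one in DIV7 replicate 1, or 63.5% of the 1576 there. It shared 858 with DIV7 replicate 2, or 55.1% and 58.6% of each list. The pair of DIV7 libraries shared 931. Promoter peaks of different days thus overlapped in numbers close to those within a day at this length. Among all pairs of libraries at equal summed length, the mean overlap of the covered bases (shared over joint length) was 22.1% within DIV3, 19.6% within DIV7 and 19.2% between the days.

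The mark had the same position around the 5' end on both days. Coverage rose over the last 1000 bases before the 5' end, was highest within 1000 bases after it and then fell, and 72.4% to 73.8% of the covered promoter bases of a library lay downstream. Between 50.6% and 54.7% lay in the first 1000 bases downstream. The most covered bin of 250 bases was that from 250 to 500 bases downstream in 5 libraries and the next one in DIV7 replicate 1.

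**Figure D2:**
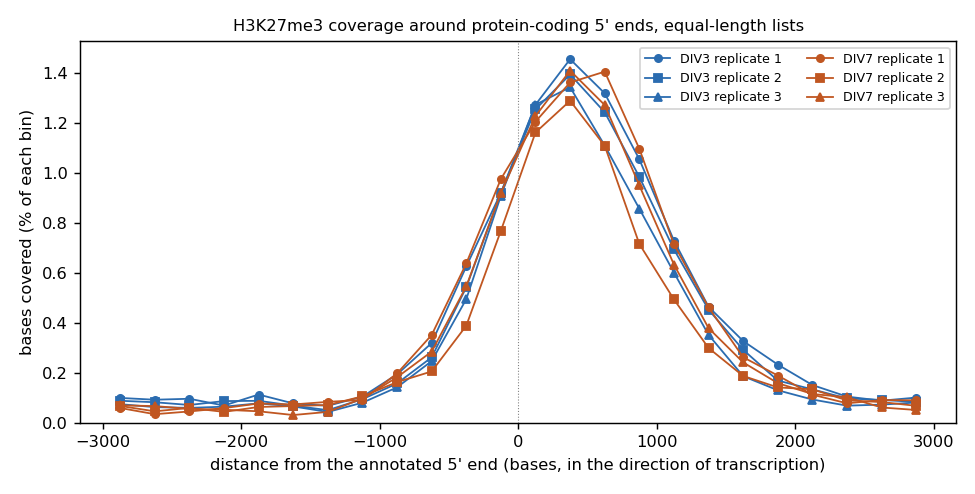
Percentage of bases covered (vertical axis) in bins of 250 bases against the distance from the annotated 5' end (horizontal axis), over all protein-coding genes, for the 3 DIV3 (blue) and 3 DIV7 (orange) libraries at equal summed length. All 6 curves peak within 1000 bases downstream and overlie each other across days.

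Because list lengths differed, coverage was tested in 2 ways, with every list limited to its strongest peaks up to a common summed length of 1.11 Mb, and with all deposited peaks. With a common length, a difference at 1 promoter is relative to the rest of its library. At equal length DIV3 replicate 1 kept all its peaks, down to a −log10 p of 4.73, whereas DIV3 replicates 2 and 3 kept those above 5.40 and 5.63 and the DIV7 libraries those above 4.96, 4.80 and 5.22. In such bulk chromatin, a change of the mark within cells and a change in the share of cells that carry it cannot be told apart.

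At equal length, few promoters passed. Of 1795 tested promoters, 7 gained coverage from DIV3 to DIV7 and 2 lost it (limma, adjusted p under 0.05), which is 0.39% and 0.111% of those tested. Of the 7 gains, 4 (Klhl1, Ccna1, Vwc2l and Sh2d4a) were covered in the 3 DIV7 libraries and in none of the other 9 of the time course. They met the filter, coverage in at least 3 of 12 libraries, through the group in which they were high. In all, 12 tested promoters were covered in DIV7 and on no other day, against 0 in DIV3 alone. Promoters with fewer than 3 covered libraries on the other days also needed their high group to be tested, and are not in that count. Their calls are therefore given as a description, without a p, and the gains that entered through other days too were Chrna3, Jam2 and Gm3264. With DIV3 and DIV7 alone in the fit, limma called 0 gains and 0 losses, and an unadjusted p below 0.05 was found at 61 promoters with a higher and 57 with a lower mean. The unadjusted p was under 0.05 at 74 promoters with a higher and 50 with a lower mean. All 3 DIV7 libraries lay above all 3 DIV3 libraries at 5.63% of the promoters and below them at 4.18%. The common length made covered bases equal, but not promoters. Those with a peak then numbered 1558, 888 and 706 at DIV3 and 1390, 1379 and 1104 at DIV7. The part of this in the gains was not tested. Calls depended on single libraries. There were no gains without DIV7 replicate 1, 2 without DIV7 replicate 3, 3 without DIV3 replicate 2, and 4 without DIV3 replicate 1 or DIV7 replicate 2. Some of these were other promoters, and without DIV7 replicate 2 or 3 Chrna3 was the only 1 of the 7 gains kept. Losses became 0 without DIV3 replicate 2 or DIV7 replicate 1 or 2, 1 without DIV7 replicate 3 and 4 without DIV3 replicate 3. Of the 2 losses, only Aqp3 was kept in any of these omissions. The median difference over all tested promoters was −0.19 percentage points, with 820 higher and 948 lower means. A 95% interval of a promoter's difference, not adjusted for the number of promoters, had a median half-width of 6.16 points. Smaller differences were therefore seldom detectable. Some larger ones did not pass either, such as −14.0 points at Ap1m2 and 12.5 points at Meox2 (limma adjusted p = 0.333 and 0.314).

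With all deposited peaks limma called no promoter of 3585, 0.0% gained and 0.0% lost. The smallest adjusted p was 0.193, and the unadjusted p was under 0.05 at 18 promoters with a higher and 318 with a lower mean. Here 3031 promoters had a lower and 454 a higher mean at DIV7, and the median difference was −2.83 points. DIV7 lay below DIV3 without overlap at 490 promoters (13.7%) and above it at 27 (0.753%). The longer lists of DIV3 replicates 2 and 3 enter these values, and their part in the lower means was not tested. Leaving out DIV3 replicate 1 gave 17 lost promoters and no gained ones.

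**Figure D3:**
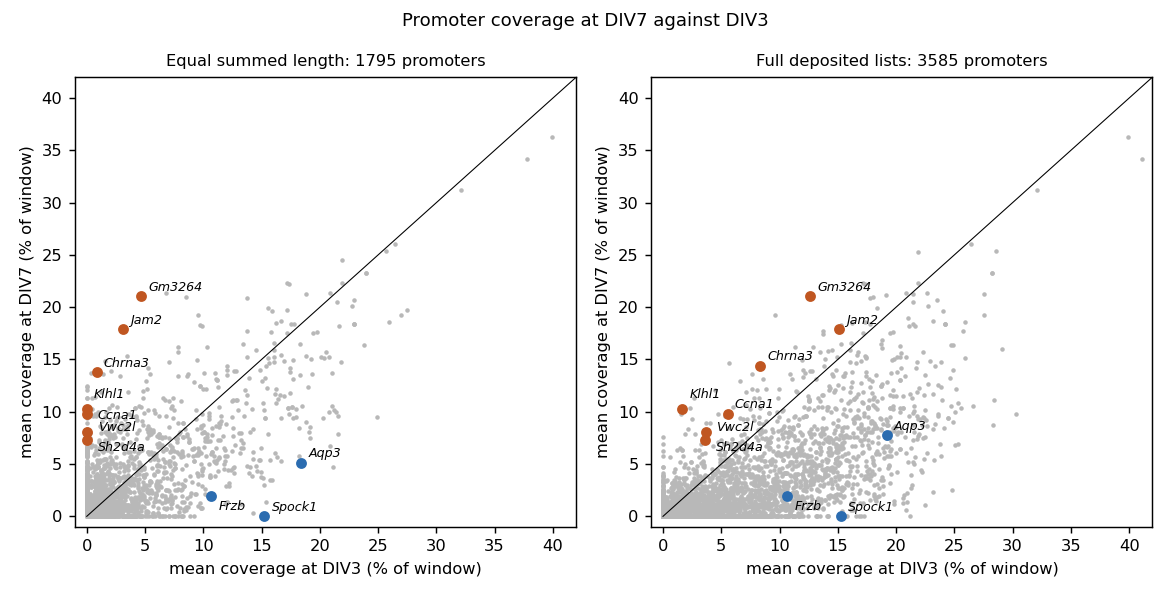
Mean coverage at DIV7 (vertical axis) against DIV3 (horizontal axis), in percent of the window, for each tested promoter at equal summed length (left) and in the full lists (right); the line marks equal values, orange marks the 7 called gains, blue the 2 called losses and Spock1, and 1 promoter beyond 42% is outside each panel. At left the points lie on both sides of the line (820 above and 948 below), and at right most lie below it (3031 of 3585).

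The called gains lay at genes of several kinds. They were Chrna3, a subunit of nicotinic acetylcholine receptors, Ccna1, a cyclin best known from male germ cells, Klhl1, a Kelch-like actin-binding protein of neurons, Vwc2l, a secreted protein with von Willebrand factor C domains, Sh2d4a, an SH2 domain adaptor, Jam2, a junctional adhesion molecule, and Gm3264, a predicted gene. The median gain was 10.3 points. All 7 also had a higher mean at DIV7 in the full lists, but there the days did not overlap at 2 of them, Klhl1 and Gm3264, and all 7 had a peak in at least 1 DIV3 library.

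At Klhl1 (5' end at 96519102 on chromosome 14, minus strand) the groups stood apart in both sets of peaks. Its coverage at equal length was 0 in all DIV3 libraries and 12.2%, 9.85% and 8.78% in DIV7 replicates 1 to 3. Full lists gave 0, 1.40% and 3.48% at DIV3, and the DIV7 values were the same as above. The difference was 10.3 points at equal length and 8.65 points in the full lists, where it did not pass (limma adjusted p = 0.418). No DIV1 library had a peak there, and DIV5 held 4.13%, 0 and 8.03% in the full lists.

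Chrna3 (5' end at 55026562 on chromosome 9, minus strand), whose window also holds an end of the neighbouring subunit gene Chrnb4, had the smallest adjusted p of the gains that entered the test through other days too. Coverage at equal length was 0, 2.57% and 0 at DIV3 and 14.2%, 14.4% and 12.8% at DIV7. The difference was 12.9 points (SE 1.42, limma adjusted p = 0.00336), and every DIV7 library lay above every DIV3 library. In the full lists DIV3 had 0, 10.1% and 14.8%, the last of which was above the lowest DIV7 value of 12.8%. The bases covered in all 3 DIV7 libraries made up 0.967% of the window, so that the 3 libraries reached like totals with peaks in largely different places. Coverage at DIV5 was 0 in all 3 libraries at equal length and 18.4%, 19.3% and 15.9% in the full lists. These values of 0 enter the spread behind its adjusted p.

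Ccna1 (5' end at 55055501 on chromosome 3, minus strand) shows how the limit on length acts on such values. It was at 0 in DIV3 and at 8.80%, 10.6% and 10.1% in DIV7 at equal length, a difference of 9.82 points. With all peaks DIV3 replicates 2 and 3 had 3.33% and 13.3%. Their peaks, with a −log10 p of 4.88 and 4.80, fell below the limits of their own libraries, while the DIV7 replicate 2 peak at 4.95 lay above the lower limit of that library. Without overlap at equal length, the days therefore overlapped in the full lists.

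Vwc2l (5' end at 70725715 on chromosome 1) and Sh2d4a (68276567 on chromosome 8), both on the plus strand, repeated this pattern with DIV3 replicate 3. Vwc2l had 7.68%, 6.80% and 9.62% at DIV7, and Sh2d4a had 7.92%, 6.80% and 7.17%. Both were at 0 in every DIV3 library at equal length, and in the full lists at 0 in DIV3 replicates 1 and 2 and at 11% and 10.7% in replicate 3. The differences at equal length were 8.03 and 7.29 points.

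Jam2 (5' end at 84774123 on chromosome 16, plus strand) and Gm3264 (4855576 on chromosome 14, plus strand) passed narrowly, each with a limma adjusted p of 0.0475. Jam2 had 9.22%, 0 and 0 at DIV3 and 18.5%, 16.2% and 19.0% at DIV7 at equal length. With all peaks DIV3 replicates 2 and 3 had 18.2% and 17.9%, within the range of DIV7. Its DIV7 peaks shared 972 bases, from base 2 to base 973 after the 5' end, so that nearly the whole covered region was common to the 3 libraries. Gm3264 rose from 4.27%, 0 and 9.68% to 19.4%, 20.3% and 23.4%, and it belongs to a family of near-identical genes, so that reads could have been placed on another copy and its value is uncertain. In the full lists its DIV3 values were 4.27%, 14.28% and 19.36%, the last just below the lowest DIV7 value of 19.43% (limma adjusted p = 0.488).

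Aqp3 and Frzb were the called losses. Aqp3 (5' end at 41098183 on chromosome 4, minus strand), an aquaporin that also conducts glycerol, was covered over 14.7%, 20.2% and 20.3% at DIV3 and 2.38%, 4.98% and 8.0% at DIV7 at equal length. The difference was −13.3 points (SE 1.93, limma adjusted p = 0.0122). DIV1 and DIV5 libraries had 16% to 20.3%, so that the 3 DIV7 libraries stood below all 9 earlier ones. With all peaks DIV7 replicate 3 had 15.9%, above the lowest DIV3 value of 14.7%, and the difference there of −11.4 points did not pass (adjusted p = 0.429).

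Frzb (5' end at 80447625 on chromosome 2, minus strand) encodes a secreted antagonist of Wnt ligands. It had 9.77%, 9.07% and 13.1% at DIV3 and 1.65%, 0 and 4.23% at DIV7, the same in both sets of peaks. The difference was −8.70 points in both (limma adjusted p = 0.0475 at equal length and 0.429 in the full lists), and the days did not overlap in either. At equal length no DIV1 library and 1 DIV5 library had a peak there (1.55%). In the full lists DIV1 had 5.47%, 14.6% and 8.80%, which overlapped DIV3, and DIV5 had 2.95%, 8.42% and 5.15%. The bases covered in all DIV3 libraries were 524, of which 88.5% were coding.

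Spock1, which encodes a testican proteoglycan of the extracellular matrix (5' end at 57908332 on chromosome 13, minus strand), missed the threshold. It was covered over 15.9%, 15.5% and 14.3% at DIV3 and had no peak in any DIV7 library, in both sets of peaks. The difference was −15.2 points (SE 2.79, limma adjusted p = 0.0511 at equal length and 0.284 in the full lists). With windows of 1 kb on each side it passed, together with Aqp3. DIV5 libraries had 11.4%, 5.17% and 12.3% in the full lists, between the 2 days.

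**Figure D4:**
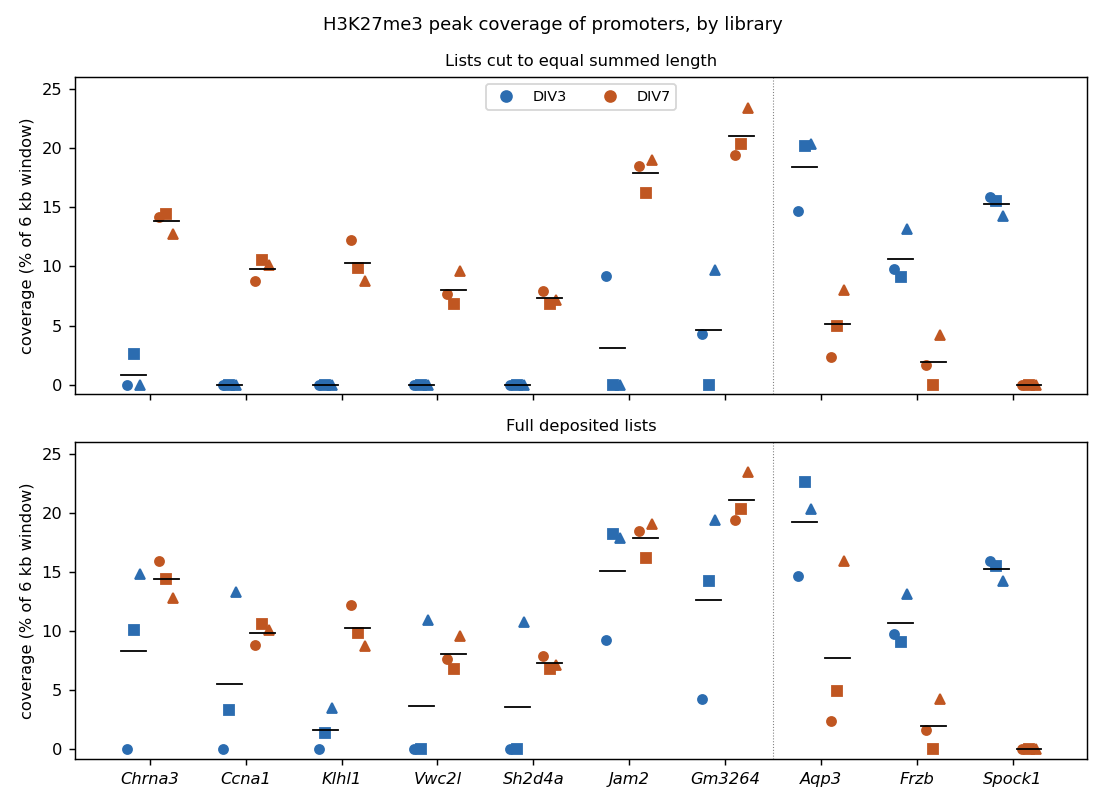
Coverage (percent of the 6 kb window, vertical axis) of the 7 gained promoters and of Aqp3, Frzb and Spock1 in each DIV3 (blue) and DIV7 (orange) library, at equal summed length (upper panel) and in the full lists (lower panel); circles, squares and triangles are replicates 1, 2 and 3, and horizontal lines are means. The 7 gains stand apart in the upper panel, and in the lower panel Klhl1 and, narrowly, Gm3264 do so, whereas Frzb and Spock1 stand apart in both.

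The promoters next in order at equal length did not pass, and several changed between the sets of peaks. Epha6, an Eph receptor, was at 0 in DIV3 and at 14.0%, 10.1% and 9.85% in DIV7, and in the full lists DIV3 had 0, 8.23% and 16.4%. At equal length Epha6, and Rin2 and B3gnt5 named below, met the filter only through DIV7 and are given without a p. C1ql1, a synapse organizer of climbing fibres, which at equal length was covered in DIV7 alone, differed by 6.06 points there and by −4.75 points in the full lists (adjusted p = 0.628). Rin2, a guanine nucleotide exchange factor of RAB5, and B3gnt5, an enzyme of glycolipid synthesis, kept their direction, and both had no DIV1 peak in the full lists. B3gnt5 was at 0, 2.40% and 5.57% in DIV3 and at 10.3%, 9.48% and 14.1% in DIV7 there, without overlap. On the side of loss, Bcl6b, Ap1m2, P4ha3, Rab3b and Ankrd60 differed by −14.0 to −3.92 points. Of these Ap1m2 and P4ha3 entered through other days too (limma adjusted p = 0.333 and 0.357). Bcl6b, Rab3b and Ankrd60 met the filter only through DIV3, and their differences are a description.

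Over all peaks the promoters with the smallest adjusted p were all lower at DIV7. Foxh1, a partner of SMAD2 in nodal signalling whose window is shared with Ppp1r16a, had 15.3%, 28.1% and 20.4% at DIV3 and 4.30%, 0 and 3.75% at DIV7 (−18.6 points, SE 2.95, limma adjusted p = 0.193). Chst1, a sulfotransferase of keratan sulfate, had 12.1%, 15.3% and 18.8% against 0, 0 and 5.55% (−13.6 points, adjusted p = 0.193). Lyn, a SRC family kinase, and Ptpru, a receptor tyrosine phosphatase, followed (−15.1 and −16 points, adjusted p = 0.284 each). Their libraries did not overlap, and the same holds for Bok, an effector of apoptosis of the BCL2 family, which was higher at DIV7 (0, 0 and 4.52% against 10.5%, 8.20% and 10.8%, adjusted p = 0.429). At equal length Foxh1, Chst1 and Lyn each kept a peak in 1 of 3 DIV3 libraries, namely replicate 1.

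Presence and absence of peaks gave a short and a long list. Full lists gave 4252 promoters with a peak in any DIV3 library, 2764 in any DIV7 library and 644 in all 6. Peaks in all 3 DIV7 libraries and no DIV3 library were found at 12 promoters, and the opposite at 165. At equal length the numbers were 51 and 12, so the direction in which peaks appeared or disappeared turned with the length of the lists. Without DIV3 replicate 1 the 165 became 562 and without DIV7 replicate 3 261, and the 12 became 25, 32, 35 and 19 without DIV3 replicate 3 and DIV7 replicates 1, 2 and 3.

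The 12 promoters new at DIV7 were covered thinly, with a median of 4.07% at DIV7. Prokr1, a prokineticin receptor, had 13.1%, 5.50% and 4.22%, and Antxr2, the capillary morphogenesis protein that binds anthrax toxin, had 9.70%, 1.82% and 9.10%. Syngr2, a synaptogyrin, Myo16, an unconventional myosin of neurons, St6gal1, a sialyltransferase, Clec14a, an endothelial lectin, Pros1, a ligand of TAM receptors, and Arsj, a sulfatase, were among the rest, chosen after their values were seen. At 11 of the 12 no DIV1 library had a peak either, and 5 of the 12 had one in all 3 DIV5 libraries.

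The 165 promoters with a peak in every DIV3 and no DIV7 library had a median coverage of 6.79% at DIV3. Of these, 83 had a peak in all 3 DIV1 libraries as well, and 7 in none. At DIV5, 41 still had a peak in all 3 libraries and 25 in none. Members with values on the more covered side included Mmp23, a metalloproteinase (3.90%, 32.1% and 27.6%), Coro2a, an actin-binding coronin (13.7%, 13.8% and 23.5%), and Prox1, a homeodomain transcription factor (9.53%, 13.1% and 12.2%), again chosen after their values were seen. DIV3 replicate 1 had the lowest of the 3 values at each of these, by a narrow margin at Coro2a.

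The gene lists place these promoters in pathways and families. In every list but 1 the full lists gave a median difference below 0, as over all promoters (−2.83 points), so the lists are read beside that value. No list member was called in the full lists, where non-overlap in the downward direction covered 13.7% of all tested promoters. At equal length 3 list members were called, namely Chrna3, Frzb and, covered in DIV7 alone, Ccna1.

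Ion channels had many members with peaks on both days. Of 46 tested voltage-gated, inward-rectifying and other potassium channel promoters, 42 had a lower mean at DIV7 in the full lists, 3 a higher one, and 9 were lower without overlap (median −3.53 points). Over all tested promoters 3031 of 3585 were lower there, and 13.7% were lower without overlap. At equal length 14 of 21 potassium channels were lower and 7 higher, with 0 lower without overlap (median −0.82 points). Kcnt1, a sodium-activated channel, had 0.817%, 12.1% and 7.63% at DIV3 and no peak at DIV7, and Kcnq3, a subunit of the M current, had 4.15%, 2.17% and 3.03% and none. Of 16 calcium and sodium channel promoters 14 had a lower mean in the full lists, and 6 were lower without overlap (median −2.78 points). At equal length 7 of 8 were lower, 1 of them without overlap (median −2.36 points). In the full lists Cacna1g, a T-type calcium channel of neurons that fire in bursts, had 8.70%, 8.95% and 11.9% at DIV3 and none at DIV7 (limma adjusted p = 0.429). Its equal-length values were 8.70%, 2.67% and 0 against none, with overlap (adjusted p = 0.835). Cacna1i, of the same type, had 3.02%, 9.28% and 8.42% in the full lists and none. Cacna1s, the skeletal muscle channel, whose window is shared with Ascl5, had 4.85%, 17.2% and 14.2% against 0, 4.25% and 0 in both sets of peaks (adjusted p = 0.748 at equal length).

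Receptors for transmitters showed no common direction at equal length. Of 12 acetylcholine and serotonin receptor promoters tested there, 8 had a higher and 4 a lower mean, and Chrna3 alone was called. Of 7 glutamate receptors 3 were higher and 4 lower. With all peaks Grm7, a presynaptic metabotropic receptor, had 12.5%, 20% and 30.4% at DIV3 against 2.43%, 0 and 4.18% at DIV7 (−18.8 points, limma adjusted p = 0.429), the 1 of 15 tested members that was lower without overlap. At equal length its difference was −3.37 points. Of the 9 GABA-A and glycine receptors in the full lists 7 had a lower mean, and Gabra5, a subunit of receptors outside the synapse, had 3.28%, 2.08% and 20.8% at DIV3 and none at DIV7. At equal length 3 GABA-A and glycine receptors were tested, with 3 higher and 0 lower means.

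In the full lists Wnt signalling genes and extracellular matrix genes each had members that stood apart, as did 13.7% of all tested promoters in the downward direction. In the Wnt list 29 of 31 promoters had a lower mean in the full lists (median −5.13 points) and 6 were lower without overlap, namely the ligands Wnt2 and Wnt4, the receptor Fzd10, the antagonist Frzb and, of the R-spondin branch that strengthens Wnt signals, Rspo2 and its receptor Lgr5. At equal length 14 of 20 were lower (median −1.69 points), 1 of them without overlap, namely Frzb, which was called. Of 27 collagens and laminins 24 were lower (median −5.13 points) and 9 without overlap, of which Col4a1 and Col4a2 share a window. Col26a1 had 15.5%, 21.5% and 32.4% at DIV3 and 0, 5.02% and 2.08% at DIV7, and Lama1, a laminin chain of basement membranes, 8.75%, 17.8% and 27.7% against 1.68%, 2.20% and 1.97% (limma adjusted p = 0.429 each). At equal length 10 of 17 collagens and laminins were lower and 7 higher (median −0.63 points). Without overlap 2 were lower and 1 higher there, where the shares over all tested promoters were 4.18% and 5.63%.

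Hedgehog genes, through which granule neuron precursors are driven to divide, were the list with a median above 0 in the full lists. Of 9 tested promoters 6 had a higher mean (median 1.03 points), where Evc and Evc2 share a window and count as 2 of the 6, and for none did the days stand apart. Gli1, a transcriptional effector and target of the pathway, had 0, 0 and 10.8% at DIV3 and 13.2%, 5.07% and 0 at DIV7. Gli3, which acts mainly as a repressor, had 3.37%, 9.92% and 26.2% against 3.18%, 0 and 7.83%. Both overlapped between the days (limma adjusted p = 0.774 and 0.542).

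Genes of axon guidance and of cell contact followed the overall shift. With all peaks 24 of 27 axon guidance promoters were lower, 5 without overlap. At equal length 4 of 7 were lower and 3 higher, with 0 lower without overlap. Ephb4 and Ephb3, receptors for ephrin-B ligands, had 14.1%, 20.6% and 27.2% against 0, 3.08% and 2.95%, and 4.97%, 6.30% and 8.55% against none. Ntng1, a netrin-G of axons, had 3.43%, 14.1% and 15.8% at DIV3 and none at DIV7 (limma adjusted p = 0.429 for each of the 3). Of 20 cadherins 17 were lower in the full lists (median −6.41 points) and 3 without overlap. At equal length 7 of 11 were lower and 4 higher, with 0 lower without overlap. Pcdh10, a protocadherin, was an exception in direction, with 5.38%, 21.3% and 27.4% at DIV3 and 19.1%, 24.2% and 19.6% at DIV7.

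**Figure D5:**
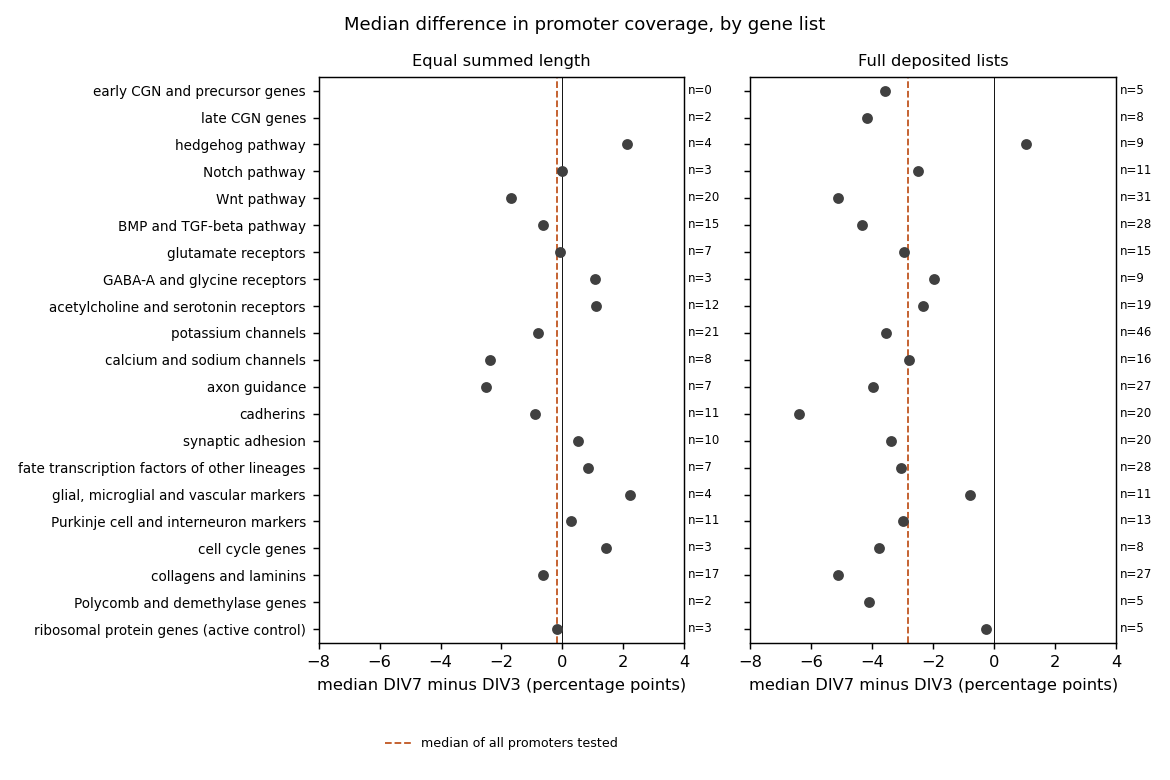
Median difference in coverage (DIV7 minus DIV3, percentage points, horizontal axis) of the tested promoters of each gene list (vertical axis), at equal summed length (left) and in the full lists (right); n is the number tested, lists with fewer than 3 have no point, and the dashed line is the median of all tested promoters (−0.19 and −2.83). In the right panel the hedgehog pathway lies above 0, at 1.03, and the cadherins lie lowest, at −6.41.

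Regulators of other lineages, the classic targets of the mark, were tested at 28 promoters in the full lists. Of these 25 had a lower mean at DIV7 (median −3.07 points), beside 3031 of 3585 over all tested promoters, and none stood apart. At equal length 7 were tested, 5 with a higher and 2 with a lower mean. Of these 2 were higher and 1 lower without overlap. Meox2, a homeodomain factor of mesoderm, had 0, 28.5% and 22.4% at DIV3 and 7.67%, 15.3% and 15.4% at DIV7, and the days overlapped. At equal length it was at 0 in DIV3 (12.5 points, limma adjusted p = 0.314). Of 39 Hox genes 10 had a peak in any DIV3 and 1 in any DIV7 library, and Hoxa13 was the 1 tested. Over all 21938 promoters those numbers were 4252 and 2764.

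Of 25 Notch pathway promoters 11 had a peak in any DIV3 library and 10 in any DIV7 library. Of 11 Notch genes tested in the full lists 10 had a lower mean and 1 an equal one, beside 3031 lower of 3585 over all tested promoters. At equal length 3 were tested, 1 higher, 1 lower and 1 equal. In the full lists Jag1, a ligand of Notch receptors, had 5.17%, 18.4% and 28.1% at DIV3 and no peak at DIV7 (−17.2 points, limma adjusted p = 0.468). Of 5 Polycomb and demethylase genes 4 had a lower mean. Phf19, a PRC2 accessory subunit, had 1.95%, 12.3% and 13.9% against 3.38%, 2.15% and 2.23%. In the list of cell cycle genes 7 of 8 had a lower mean in the full lists, with Ccna1 on the other side.

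The genes by which the study followed maturation were mostly without promoter peaks in these 6 libraries. Mycn, Tubb5, Ebf3, Grm4, Gabra6, Olfm3 and Slc17a6 had none. Atoh1, which specifies the granule cell lineage, had 0, 2.92% and 5.77% at DIV3 and 0, 2.97% and 6.57% at DIV7 (0.28 points, limma adjusted p = 0.985). Myc, a driver of proliferation, had 2.27%, 18.9% and 22.2% against 3.35%, 0 and 7.40% (−10.9 points, limma adjusted p = 0.524), with overlap. Of the genes that rise with maturation, Gabrd, the δ subunit of GABA-A receptors, had 0, 5.32% and 13.2% at DIV3 and none at DIV7. Grin2c, the NMDA receptor subunit of mature granule neurons, had 4.80%, 7.60% and 16.5% against 8.85%, 0 and 2.18%. Nfib had 2.57% in DIV3 replicate 3 and no peak elsewhere. In none of these did DIV7 stand apart from DIV3, and Jag1, described above, was the exception among the example genes in the full lists. At equal length Jag1 had 5.17%, 17.6% and 0 at DIV3 and none at DIV7, so that the days overlapped (limma adjusted p = 0.767). The study pictured Jag1 as a gene whose H3K27me3 was unchanged from DIV1 to DIV7.

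Markers were checked for the identity of the cells, where an active gene should have no promoter peak. All 11 CGN markers, among them Neurod1, Zic1, Pax6 and Slc17a7, had none in the 6 libraries. Of 16 markers of glia, microglia and vessels 11 had none, 5 had a peak in any DIV3 library and 3 in any DIV7 library. Of 11 Purkinje cell and interneuron markers 7 had none, 4 had a peak at DIV3 and 2 at DIV7. Cldn5, a tight junction gene of endothelium, had 4.83%, 34.2% and 36.2% at DIV3 and 5.70%, 5.48% and 18.7% at DIV7. Since the glial markers Gfap, Aqp4, Olig1 and Olig2 had no peak on either day, absence of a peak does not tell an active from a silent gene here, and the part of other cells in the differences was not tested.

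The called gains were also followed in the cultures given GSK-126, which were harvested on DIV5 and did not enter the comparison. The GSK-126 lists were shorter as a whole, with 8723, 5401 and 7839 peaks against 13255, 17142 and 14475 with DMSO, and the part of this in the values of single promoters was not tested. Vwc2l had 7.07%, 4.40% and 5.35% with DMSO and no peak with GSK-126. Klhl1 had 0, 13.2% and 16.8% with DMSO and none with GSK-126. The loss Aqp3 overlapped between the treatments (16%, 19.4% and 13.1% with DMSO, 19.0%, 2.42% and 12.5% with GSK-126), and Frzb had 8.20%, 10.7% and 4.68% with DMSO and none with GSK-126. The DMSO values above are from the cultures set beside GSK-126. The DMSO cultures of the GSK-J4 experiment had lists of 8292, 6876 and 7858 peaks. In them Vwc2l had 7.42%, 1.33% and 2.78%, Klhl1 had 2.63%, 0 and 1.05%, and Frzb had 2.75%, 0 and 2.95%. All these values are given without a test.

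Base composition of the windows differed little from that of other promoters with peaks. The 7 gained windows had a median G+C content of 47.8% and a CpG observed over expected ratio of 0.347, against 49.4% and 0.36 over all tested promoters and 46.8% and 0.323 over all protein-coding ones. The 165 promoters with DIV3 peaks alone had 51.4% and 0.405, and the 12 with DIV7 peaks alone 46.6% and 0.312. The gained windows ranged from 36.3% (Vwc2l) to 49.9% (Chrna3) in G+C.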

How the data were processed

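H3K27me3 was profiled by CUT&RUN in CGN cultures, and 6 of 24 libraries were compared, with 6 more of the same time course sharing the fit. Per the study's methods the authors used Trimmomatic 0.38 for trimming, FastQC for quality, STAR 2.7.2b for alignment to mm10 and MACS2 2.1 for broad peaks in each library, at an FDR of 0.1. The control of the peak calls is not given in the sources used here. The deposited lists give a fold enrichment (a ratio over local background), a −log10 p-value and a −log10 q-value per peak, and the score the authors deposited was not used. The authors tested read counts with DESeq2 1.36.0, which peak lists do not allow.

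Promoter coverage was the percentage of a 6 kb window (3 kb on each side of the 5' end) under peaks, with lists limited by −log10 p to the 1.11 Mb of the shortest list, or with all peaks. Promoters covered in at least 3 of the 12 time course libraries entered limma 3.58.1 (lmFit, robust eBayes, two-sided, R 4.3.3) with Benjamini-Hochberg adjustment at 0.05. The median, not the mean, of a list is given beside that of all promoters, and no list was tested. Whole libraries were compared by exact permutation. Replicates are cultures from pooled litters. The limma p-values use a spread between cultures estimated over the 12 time course libraries and drawn towards that of all tested promoters. At equal length this spread includes values of 0 where the limit on length had removed peaks, as at Chrna3 in DIV5. The part of such values in the p-values was not tested. The exact permutation p-values rest on the 3 cultures per day. Python 3.11.15, pandas 2.3.3, scipy 1.17.1, pysam 0.24.0 and matplotlib 3.10.9 were used, and the script that runs limma was checked on simulated coverage.

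The comparison, the gene lists and the named genes were chosen with earlier results of these data known. The rule named the study's example genes, up to 10 called promoters per direction without predicted gene models, filled with the next non-overlapping ones in order of p, 5 per direction for all peaks, and per list up to 4 called members or the 2 with the smallest p. Other genes, Gm3264, list members without overlap and those of the peak presence lists included, were chosen after their values were seen. Alternatives were all peaks, ranking by fold enrichment, a −log10 q of at least 2, 1 kb windows, coverage in at least 1 library, a fit on the 6 libraries, the replicate number as a block, a common length without DIV3 replicate 1, and leaving out each library or replicate 1 of every day. A −log10 p of at least 5 was added after the data were seen.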

Additional observations from a re-analysis of the deposited data

How the results depend on the processing

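The calls at equal length depended on the settings. The 7 gains became 0 with all deposited peaks, on the 6 libraries alone, without replicate 1 of every day and with a −log10 p of at least 5. They became 1 with a −log10 q of at least 2 (Gm2956, not among the 7). Ranking by fold enrichment gave 1, Ccna1, which met the main filter through DIV7 alone. Coverage in at least 1 library gave 11, of which 5 were among the 7. The 2 losses became 0 with all peaks, ranking by fold enrichment, a −log10 q of at least 2, the 6 libraries alone, without replicate 1 of every day and with a −log10 p of at least 5. They became 5 when the common length was set without DIV3 replicate 1, of which only Aqp3 was among the 2. Leaving out 1 library gave 0 to 6 gains (0 without DIV7 replicate 1, 2 without DIV7 replicate 3, 3 without DIV3 replicate 2, 4 without DIV3 replicate 1 or DIV7 replicate 2) and 0 to 4 losses (0 without DIV3 replicate 2 or DIV7 replicate 1 or 2, 1 without DIV7 replicate 3, 4 without DIV3 replicate 3). Chrna3 stayed called when any library but DIV7 replicate 1 was left out, and was the only 1 of the 7 gains kept without DIV7 replicate 2 or 3. Of the 2 losses, only Aqp3 was kept in any of these omissions. With all peaks the 0 losses became 0 to 17 without 1 library and 165 without replicate 1 of every day. Where limma gave 0 calls without replicate 1 of every day and on the 6 libraries alone, 35 and 61 promoters were higher, and 60 and 57 lower, at an unadjusted p under 0.05. The cause of these changes was not tested.

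Replicate numbers did not pair the libraries: deviations of same-numbered libraries correlated with r of 0.032, −0.071 and 0.020 at equal length and 0.0007, −0.155 and 0.128 with all peaks. With the replicate number as a block there were 3 gains (Ccna1, Chrna3 and Klhl1) and 1 loss (Aqp3) at equal length, and 0 and 0 with all peaks. Of these gains Ccna1 and Klhl1 met the filter through DIV7 alone, so that their calls are a description.

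C1ql1 turned to −4.75 points with all peaks and −5.27 with a −log10 p of at least 5, and Lvrn to 12.5 with a −log10 q of at least 2 and 10.7 with fold enrichment. The promoter share of the covered length, lower by 2.49 points at DIV7, turned to 0.30 higher without DIV3 replicate 1 and lay between −5.46 and 0.30 over the 6 omissions. Promoters with peaks at DIV7 alone numbered 3 at 5% of the window or more, 2 at a −log10 q of at least 2, 51 at equal length and 12 to 35 without 1 library. Those with peaks at DIV3 alone numbered 13 at a −log10 q of at least 2, 12 at equal length and 174 to 562 without 1 library. Read depth is unknown, and a promoter's difference under about 6.16 points was seldom detectable. That value is not adjusted for the number of promoters, and larger differences could also miss the adjusted threshold.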

Other observations

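At the threshold of a −log10 q of at least 2 the DIV7 libraries were alike and stood apart from DIV3 in 3 measures. The promoter share of the covered length was 34.2%, 33.8% and 42.1% at DIV3 and 30.1%, 31.4% and 30.8% at DIV7, and the intergenic share was 39.1%, 39.7% and 36.2% against 44.2%, 44.7% and 44.7%. Promoters with such a peak numbered 199, 297 and 883 against 178, 156 and 195. Each difference had an exact permutation p of 0.1, the smallest this design allows, and an adjusted p of 0.267.

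The 7 promoters with the highest coverage in their least covered library were predicted genes, and reads of such genes can often be placed on several copies. Gm21738 on chromosome 14 was covered over 62.2% to 62.3% in every library. Next among named genes, Susd3, a sushi domain protein, had 20.9%, 23.2% and 24.8% at DIV3 and 20.7%, 19.4% and 21.9% at DIV7, and Corin, a serine protease of the heart, had 19.6%, 24.1% and 20.7% against 18.6%, 19.3% and 23.7%.

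Car8, a marker of Purkinje cells, was higher at DIV7 without overlap in the full lists (0, 1.92% and 0 against 2.90%, 7.10% and 7.12%, limma adjusted p = 0.544).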
